A study of Mus musculus with 8 samples.

Results

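Peaks of phosphorylated CREB1 were examined at 9 genes that encode transcription factors, or a partner of one, of muscle fiber type and muscle maturation: Nfia, Nfib, Nfic, Nfix, Prox1, Sox6, Six4, Eya1 and Tead1. They are 9 of 21887 protein-coding genes on 21 chromosomes, and they were chosen by their peaks in these same lists, with earlier results known. A peak counted for a gene when its summit, the position of highest signal, lay inside the gene's annotated span (GRCm38.p6, RefSeq) or within 10000 bp of it. By this rule the genes held 39 of 10835 peaks in CTRL replicate 1 and 56 of 14975 in CTRL replicate 2. In C26 replicate 1 they held 21 of 7482, and in C26 replicate 2 they held 9 of 4051. Where 4 values stand together below, they are for CTRL replicate 1 and 2 and then C26 replicate 1 and 2. The libraries came from muscle of mice in 2 groups, with 2 phospho-CREB1 libraries and 2 input libraries each. C26 mice were male Balb/c mice injected under the skin at 2 months of age with C26 cells, which derive from a murine colon carcinoma and are used to model cancer cachexia. CTRL mice are labelled only as controls, with no other treatment, age or strain given for them. The protocol also describes rolipram, a phosphodiesterase inhibitor, or its vehicle in tumor-bearing mice without tying either to a library, and it names the quadriceps where the sample labels name the gastrocnemius. Antibodies to CREB or to phospho-CREB1 are both named in the protocol, and the peak lists are titled for phospho-CREB1. Nothing in the labels says how many animals a library holds, and the mix of fiber types in the sampled muscle is not given.

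CREB1 binds the cAMP response element, a short palindrome, and is phosphorylated by protein kinase A and other kinases when cAMP or calcium signals rise. Adult muscle fibers are slow or fast according to the myosin and metabolic genes they use, and several of the 9 genes act above that choice. The nuclear factor I family (NFIA, NFIB, NFIC and NFIX) binds a shared palindrome, and NFIX drives the change from embryonic to fetal muscle gene programs. SOX6 represses slow-fiber genes in fast fibers, PROX1 supports the slow-fiber program, SIX4 and its coactivator EYA1 act in the fast-fiber program, and TEAD1 binds the MCAT elements of many contractile genes.

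The sequences next show some of the listed transcription starts at these genes that lay under a phospho-CREB1 peak. Starts of Nfix, Gm51811, Sox6os and Mnat1, and another start of Six4, also lay under peaks described below, and their sequences are not printed. RefSeq (GRCm38.p6) lists starts for 6 of the 9 genes in the table used here, in 16 windows of 300 bases, each from 250 bases before a start to 50 after it. No start of Nfib, Eya1 or Tead1 is in that table, so only their gene ends are used. Each line gives the 250 bases before one start, 5′ to 3′ on the gene's own strand. A peak named for a line need not cover all of its bases. Capitals mark TGACG or CGTCA (the shorter form of the cAMP response element on either strand), the CCAAT box (CCAAT or ATTGG) and the GC box (GGGCGG or CCGCCC).
Gm19417, a long noncoding RNA inside Nfia, chr4:97869010-97869259, minus strand, under a peak in all 4 libraries: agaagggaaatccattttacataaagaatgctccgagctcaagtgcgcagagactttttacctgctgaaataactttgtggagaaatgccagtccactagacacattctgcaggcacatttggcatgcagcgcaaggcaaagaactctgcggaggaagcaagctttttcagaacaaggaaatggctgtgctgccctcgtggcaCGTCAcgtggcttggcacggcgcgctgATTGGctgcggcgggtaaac
Sox6, an internal start, chr7:116031048-116031297, minus strand, under a peak in all 4 libraries: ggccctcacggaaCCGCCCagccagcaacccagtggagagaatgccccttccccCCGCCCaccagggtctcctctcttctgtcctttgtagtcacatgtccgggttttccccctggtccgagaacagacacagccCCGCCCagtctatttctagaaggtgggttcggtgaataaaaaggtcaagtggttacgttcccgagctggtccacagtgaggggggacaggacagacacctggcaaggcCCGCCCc
Prox1, chr1:190170828-190171077, minus strand, under a peak in each CTRL library but in no C26 library: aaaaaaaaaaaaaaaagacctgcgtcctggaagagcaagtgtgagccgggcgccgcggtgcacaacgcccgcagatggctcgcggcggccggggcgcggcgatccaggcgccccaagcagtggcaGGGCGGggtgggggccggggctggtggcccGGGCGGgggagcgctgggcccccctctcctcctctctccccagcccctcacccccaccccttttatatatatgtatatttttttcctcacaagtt
Six4, chr12:73113426-73113675, minus strand, under a peak in CTRL replicate 1 alone: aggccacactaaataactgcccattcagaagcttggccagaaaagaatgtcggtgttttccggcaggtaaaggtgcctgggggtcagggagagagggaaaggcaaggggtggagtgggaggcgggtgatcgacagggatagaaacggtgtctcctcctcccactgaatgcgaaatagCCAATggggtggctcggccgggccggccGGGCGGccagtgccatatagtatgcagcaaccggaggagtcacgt

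None of the 16 windows of the 9 genes held the full element TGACGTCA, or that element with 1 mismatch on either strand. Among 21263 windows of protein-coding genes, the full element was in 2.23%, and in 11.1% of the 2492 windows that overlapped a peak in all 4 libraries. With at most 1 mismatch the shares were 12.9% and 30.3%. Of the 16 windows, however, only 6 overlapped a peak, and of these the Sox6 window printed above did so in all 4 libraries. Windows that overlapped no peak held the full element in 0.721%, and with at most 1 mismatch in 11.3%. TGACG or CGTCA was in 1 of the 16 windows, 139 bases before the uppermost listed start of Sox6, where no library had a peak, against 23.6% of all windows. Either was in 62.9% of the windows that overlapped a peak in all 4 libraries and in 13.0% of those that overlapped no peak. The Gm19417 window held CGTCA 47 bases before the start. That motif lay 24, 59, 7 and 91 bp from the summits of the 4 libraries. The start of Gm51811, a long noncoding RNA inside Nfic, also lay under a peak in all 4 libraries, and its window held neither form of the element. The GC box was in 5 of the 6 windows of the 9 genes that overlapped a peak in any library. The windows of the 2 Six4 starts overlap and hold the same box. Of the 6640 windows with a peak in both CTRL libraries, a stricter set, 73.9% held the GC box, and 46.2% of all windows did. A full element contains both shorter forms, and a match describes letters in a window and not a bound site.

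All 9 genes carried peaks in CTRL replicate 1 and in CTRL replicate 2. Both C26 libraries had peaks at 6 of them, and neither had one at the other 3 (Prox1, Six4 and Eya1). Under the same rule 45.4% of all protein-coding genes had peaks in both CTRL lists and 21.1% in both C26 lists. Of the 9931 genes in both CTRL lists, 45.8% were in both C26 lists as well and 19.2% in neither. Among the 2429 genes of 100000 bp or longer the shares were 46.6% and 17.7%, and 36.8% of those in both CTRL lists were in both C26 lists. A missing peak means only that none was called in that list, not that the site was unbound. Because peaks were known when the genes were chosen, these counts are descriptions, and no test was made. A pair of libraries in each group could not give a two-sided exact permutation p below 0.333.

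**Figure D1:**
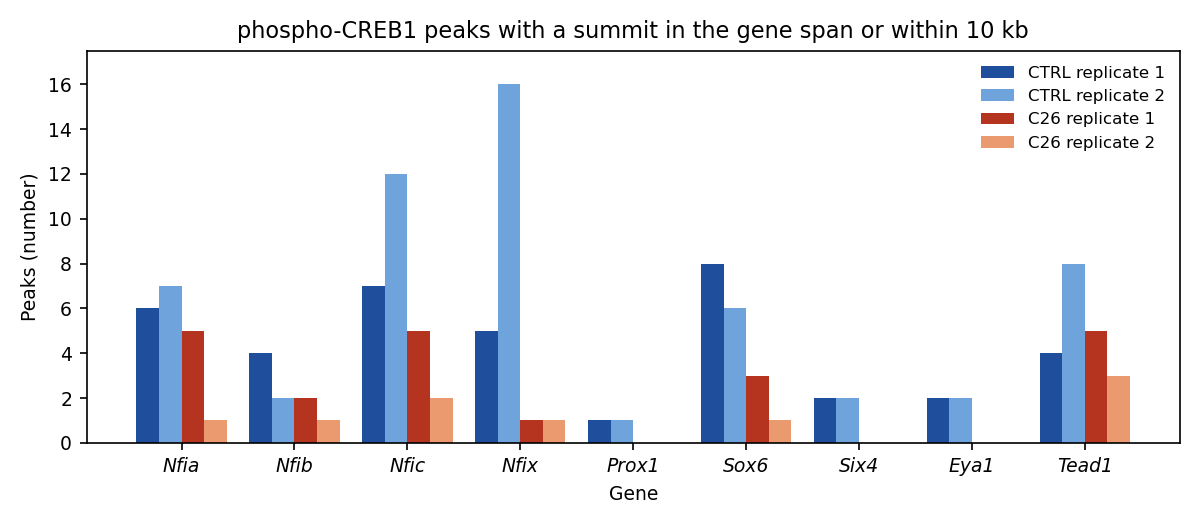
Number of phospho-CREB1 peaks (y axis) with a summit in the gene span or within 10 kb of it, for each of the 9 genes (x axis) and each of the 4 libraries (bars). Nfix had 16 peaks in CTRL replicate 2 and 1 in each C26 library, and Prox1, Six4 and Eya1 had no C26 bar.

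The 4 lists merged into 17607 regions where peaks overlapped by at least 1 bp, and 73 of these belonged to the 9 genes. Of the 73 regions, 42 (57.5%) came from a single library, compared with 42.7% of all regions. The CTRL libraries shared 25 regions (34.2%), compared with 51.0% over all regions. Of those 25, 8 were present in all 4 libraries (16.9% of all regions were), 5 in C26 replicate 1 as well but not in C26 replicate 2, and 12 (48.0%) had no C26 peak. Among all 8972 regions that the CTRL libraries shared, 33.2% were in all 4 and 30.8% had no C26 peak. No region of the 9 genes was in both C26 libraries without a CTRL peak, and over all regions 0.375% were. C26 replicate 1 alone gave 3 regions, of which 2 lay inside Nfia and 1 inside Nfic.

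The 9 genes had fewer peaks in each C26 library than in either CTRL library. They held 47.5 ± 12.0 peaks per CTRL library and 15 ± 8.49 per C26 library (SD, n = 2 per group). Since the lists differ in length, the same counts per 1000 peaks of a list were 3.599, 3.74, 2.81 and 2.22 in the 4 libraries. Each C26 list was itself shorter than either CTRL list, at 7482 and 4051 peaks against 10835 and 14975. The genes were also chosen by these peaks, and each group has 2 libraries. The share of all genes with fewer peaks in each C26 library than in either CTRL library was not computed. With only the 4051 strongest peaks of every list kept, the mean was 6.5 peaks per CTRL library and 7 per C26 library. Read depth is unknown, and its part in the list lengths was not tested.

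Peaks at these genes were mostly weak within their own lists. The percentile of a peak is the share of its list with an equal or lower −log10 q. The median percentile of the peaks at the 9 genes was 34.4, 40.3, 26.3 and 21.7 in the 4 libraries. The highest was at Tead1 in both CTRL libraries and C26 replicate 1, at 93.4, 92.9 and 91.0, and the next highest there were 82.1, 84.2 and 72.3. In C26 replicate 2 no peak of the 9 genes passed percentile 63.1. Fold enrichment over input, which the authors' peak caller scaled within each library, had medians of 5.62, 5.997, 4.44 and 5.34 at the 9 genes. Each was below the median of its whole list, at 6.43, 7.17, 5.55 and 6.98.

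Most of the peaks also lay away from gene ends. Within 1000 bp of an end of any protein-coding gene were 6 of 39 summits in CTRL replicate 1 (15.4%, 95% Wilson interval 7.25 to 29.7) and 6 of 56 in CTRL replicate 2 (10.7%, 5.00 to 21.5). The C26 counts were 2 of 21 in replicate 1 (9.52%, 2.65 to 28.9) and 1 of 9 in replicate 2 (11.1%, 1.99 to 43.5). The intervals cover counting error only. They treat each summit as independent, although the summits cluster in 9 genes that were chosen by their peaks. In the whole lists the shares were 60.2%, 53.3%, 65.9% and 62.8%. At genes of 100000 bp or longer they were 45.5%, 39.2%, 50.9% and 45.9%, which also exceeded the share at the 9 genes in each library. Of the 73 regions, 62 lay inside a gene more than 1000 bp from its ends, 6 at an end and 5 outside.

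**Figure D2:**
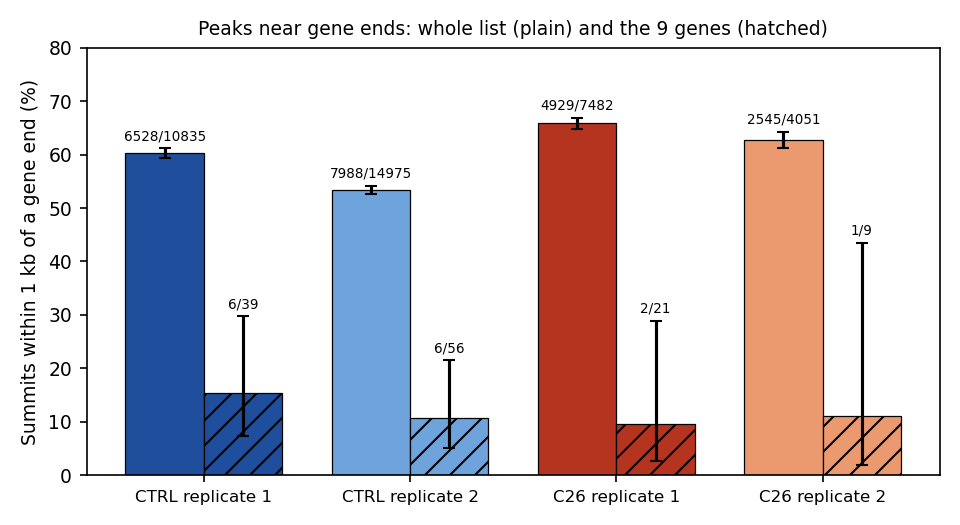
Share of summits within 1 kb of a protein-coding gene end (y axis, percent) in each library (x axis), for the whole list (plain bars) and for the 9 genes (hatched bars). Error bars are 95% Wilson intervals, and the counts above each bar run from 1/9 to 6/56 at the 9 genes and from 2545/4051 to 7988/14975 in the whole lists.

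Among the nuclear factor I genes, Nfic and Nfix carried dense groups of peaks. Nfic, which spans only 35729 bp (chromosome 10, 81396191 to 81431919), had 7, 12, 5 and 2 peaks in the 4 libraries, in 13 regions. Only 12 protein-coding genes, Nfic included, had 13 or more regions, and the median gene had 1. The CTRL libraries shared 7 of its regions, a number that 7 genes reached or passed. The strongest in CTRL replicate 1 lay inside the gene at 81411068 to 81413062, with 9.63-, 7.81- and 5.73-fold enrichment in the CTRL pair and C26 replicate 1, and no peak in C26 replicate 2. The CTRL replicate 2 peak there was 1995 bp wide, wider than 99.5% of its list or equal to it.

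At Nfic 2 regions were present in all 4 libraries. The first, at 81421720 to 81422691, had 7.44-, 14.0-, 4.44- and 5.20-fold enrichment in the 4 libraries, and it overlaps the first bases of Gm51811, a long noncoding RNA inside Nfic. Its summits fell from 59 bp before to 441 bp after the listed start of Gm51811. The second, at 81429678 to 81431350, had 9.18-, 8.75-, 3.76- and 4.08-fold, with summits 1118 to 1563 bp inside the higher-coordinate end of the gene, which is the upstream end of this minus-strand gene. A region just outside that end (81432741 to 81434181) had 6.61-, 12.4- and 4.26-fold in the CTRL pair and C26 replicate 1. Between the strongest region and the first of these lay 3 that the CTRL libraries shared and C26 lacked. Of them 81416730 to 81417642 had 5.08- and 15.4-fold, and 81415352 to 81415977 had 4.02- and 7.51-fold. The listed start of Nfic at 81427173 had no peak over its window, and the nearest summit was 660 bp downstream of it in CTRL replicate 2 alone. Of the 13 regions 5 came from CTRL replicate 2 alone and none from CTRL replicate 1 alone, so that without CTRL replicate 2 only 8 remain.

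Nfix (chromosome 8, 84704712 to 84801238) had 5, 16, 1 and 1 peaks in the 4 libraries. Its 17 regions were reached or passed by 3 protein-coding genes, Nfix included. However, 12 of the 17 came from CTRL replicate 2 alone, and without that library 5 regions remain. The CTRL libraries shared 4 of its regions, a number that 155 genes reached or passed. By regions per length of the searched window, 312 genes were at least as dense as Nfix, itself included, and 19 as dense as Nfic. The region at the higher-coordinate end, 718 and 716 bp inside it in the CTRL pair, was the strongest at these genes without a C26 peak, by the lower of its CTRL percentiles. It spanned 84799794 to 84800902 and had 13.3- and 12.0-fold enrichment, at percentiles 78.2 and 75.3. Of the 2444 regions at least as strong in both CTRL lists, 17 (0.696%), this one included, had no C26 peak. Another 2 regions shared by the CTRL libraries alone were weaker in both lists, at 84735678 to 84736267 (4.01- and 7.03-fold) and 84789827 to 84790479 (5.22- and 4.23-fold). Within the 10000 bp limit, the single region of Nfix with C26 peaks lay inside the gene near the other end, at 84718251 to 84719115. It had 6.80-, 11.02-, 5.14- and 8.24-fold in the 4 libraries. In C26 replicate 2 it was the strongest peak of the 9 genes (percentile 63.1). Of the 4 listed starts of Nfix, 2 lay in windows with a peak, both in CTRL replicate 2 alone.

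Nfia (chromosome 4, 97578066 to 98118876) had 6, 7, 5 and 1 peaks in 12 regions, all inside its span of 540811 bp. The region at 97868531 to 97869345 was the second strongest of the 9 genes by −log10 q in CTRL replicate 2. Its fold enrichments were 10.5, 15.2, 6.55 and 6.86 in the 4 libraries. The summits lay 21 bp before, 14 bp after, 38 bp before and 46 bp after the start of Gm19417 in the same order, and the sequence before that start is the first one printed above. A group of regions 173849 to 199892 bp from the lower-coordinate end held the other Nfia regions shared between libraries. There, 97772076 to 97772579 had 9.72-, 5.098- and 6.44-fold in the CTRL pair and C26 replicate 1, and 97773210 to 97773565 had 5.62- and 5.93-fold in the CTRL libraries only. Both lie within Gm38709, another long noncoding RNA. No summit counted for Nfia lay near its listed start at 97581943: the nearest was 169972 bp downstream of it, and upstream the search ended 10000 bp outside the span.

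Nfib (chromosome 4, 82290173 to 82506751) had 4, 2, 2 and 1 peaks in 4 regions. Its higher-coordinate end carried a region (82504636 to 82506808) of 5.35-, 9.81- and 2.78-fold enrichment in the CTRL pair and C26 replicate 1. The CTRL replicate 2 peak there was 2046 bp wide, the widest at the 9 genes. A region 6403 to 6556 bp outside that end (82512655 to 82513492) was in all 4 libraries at 4.65-, 9.36-, 3.41- and 7.64-fold. That region lies inside Gm11266, a long noncoding RNA next to Nfib. The other 2 regions were deep inside the gene, in CTRL replicate 1 alone, and weak (3.90- and 3.88-fold), so that without that library 2 regions remain.

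**Figure D3:**
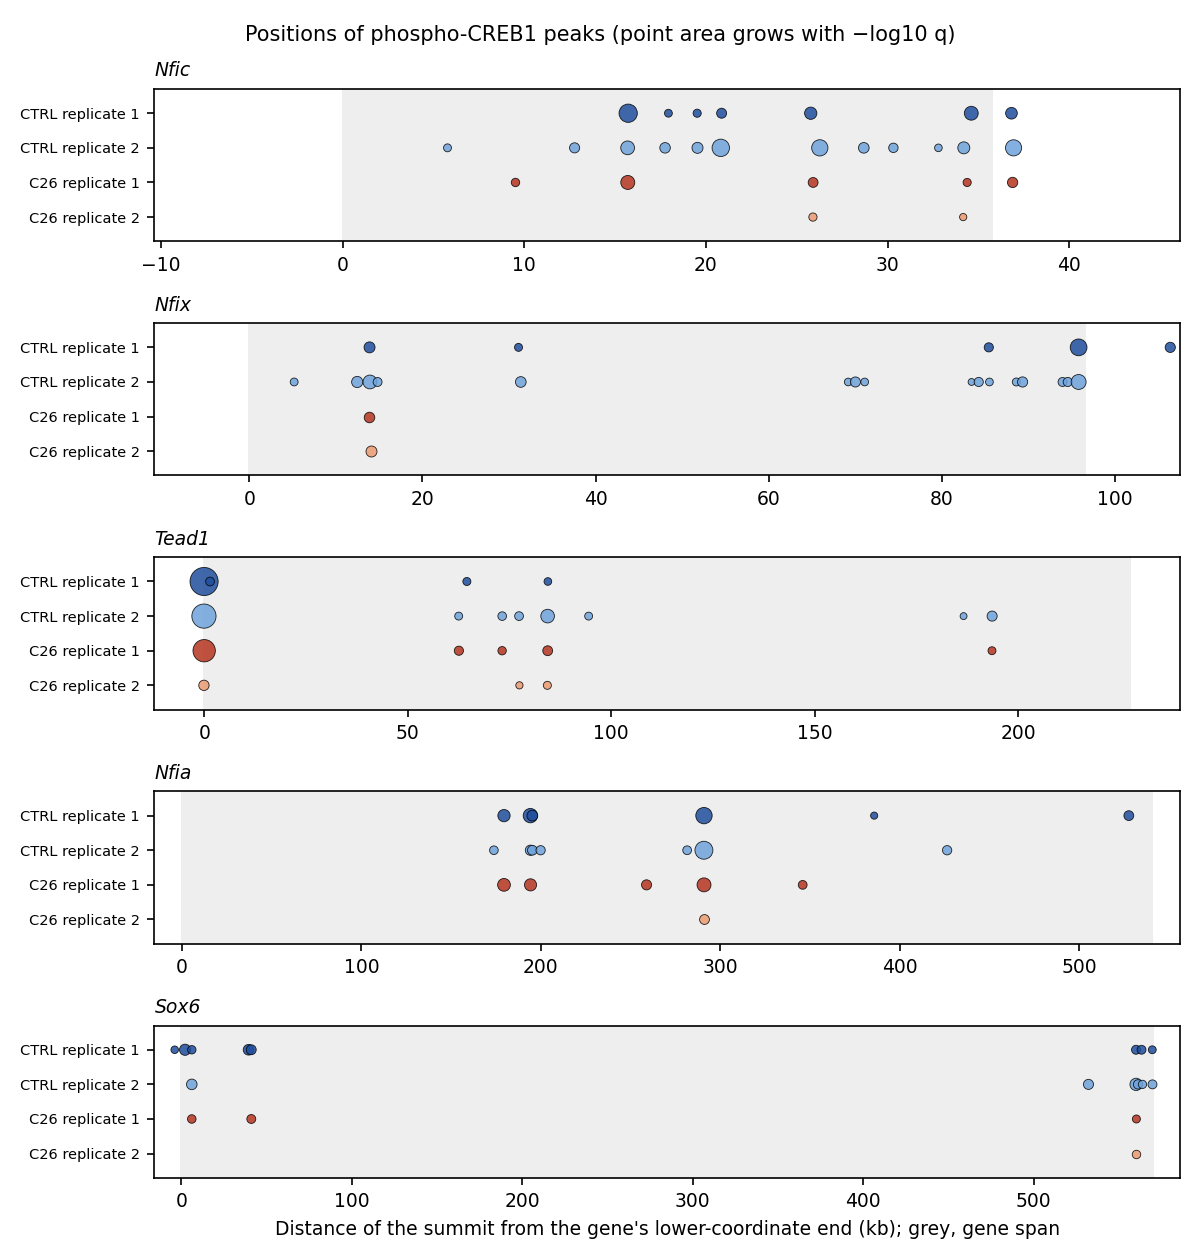
Summit positions (x axis, kb from the gene's lower-coordinate end; grey, gene span) at Nfic, Nfix, Tead1, Nfia and Sox6, with 1 row per library and the point area growing with −log10 q. Tead1 has its largest points at the lower-coordinate end in the CTRL pair and C26 replicate 1, while Nfia has its largest points inside the gene.

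Tead1 (chromosome 7, 112679356 to 112906784) carried the strongest peak of the 9 genes in the CTRL pair and C26 replicate 1. The region at its lower-coordinate end (112678505 to 112679834) had 19.9-, 22.6-, 13.4- and 7.48-fold enrichment in the 4 libraries. The −log10 q values were 79.2, 57.7, 48.8 and 7.57, at percentiles 93.4, 92.9, 91.0 and 55.2 of their lists. All 4 summits lay within 118 bp of the gene end, just outside the span. In C26 replicate 2 the peaks at Nfix and Nfib had a higher −log10 q than this one. Of the 727 regions at least this strong in both CTRL lists, 0 had no C26 peak.

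Tead1 was also the gene with the most peaks in C26 replicate 2, with 4, 8, 5 and 3 in the 4 libraries. A second region in all 4 libraries lay inside the gene (112763453 to 112764173), with 3.32-, 10.5-, 4.58- and 4.78-fold. It was weak in CTRL replicate 1 (percentile 5.05) and stronger in CTRL replicate 2 (percentile 69.3). Of regions no stronger than this by the lower of the 2 CTRL percentiles, 3.31% were in all 4 libraries. Another 4 regions inside Tead1 were shared by CTRL replicate 2 and 1 C26 library, and CTRL replicate 1 had no peak there.

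Sox6 (chromosome 7, 115470872 to 116040776), the slow-gene repressor, had 8, 6, 3 and 1 peaks in 11 regions, none more than 41094 bp from an end of this 569905 bp gene. Of these regions 4 came from CTRL replicate 1 alone and 3 from CTRL replicate 2 alone, and without CTRL replicate 1 there are 7. One region was in all 4 libraries (116030671 to 116031194), at 5.00-, 9.18-, 3.88- and 5.34-fold enrichment. Its summits lay 217, 181 and 141 bp downstream of the internal start at 116031047 in the CTRL pair and C26 replicate 2, and 3 bp upstream of it in C26 replicate 1. The sequence before that start, printed above, holds 4 GC boxes and neither form of the cAMP response element. The gene's higher-coordinate end had a region in the CTRL pair only (116040020 to 116040614, 4.17- and 5.51-fold). Toward the other end, 115476835 to 115477276 had 3.76-, 6.86- and 4.29-fold in the CTRL pair and C26 replicate 1. The antisense noncoding gene Sox6os had a peak in CTRL replicate 2 alone, with its summit 22 bp after the listed start.

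Prox1 (chromosome 1, 190118035 to 190170827), the slow-fiber factor, had 1 region and it sat at the start. The peaks were 9.50- and 9.12-fold enriched in the CTRL pair, at percentiles 64.0 and 61.1, and no C26 peak was listed. Their summits lay 121 and 78 bp downstream of the listed start at 190170827. The region (190170326 to 190171052) also overlaps Prox1os, an antisense noncoding gene, so the start it belongs to cannot be told from position. Among the 3766 regions at least as strong in both CTRL lists, 4.38% had no C26 peak.

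The SIX4 and EYA1 genes, partners in the fast-fiber program, had peaks in CTRL libraries only. Eya1 (chromosome 1, 14168953 to 14311035) had 2 regions near its higher-coordinate end, each in both CTRL libraries. The region at 14309629 to 14310124 had 9.36- and 7.63-fold enrichment in the CTRL pair, with summits 1252 and 1194 bp inside the gene. The other, at 14304595 to 14305067, had 5.98- and 7.96-fold.

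Six4 (chromosome 12, 73099609 to 73114031) had 3 regions, and the one shared by the CTRL libraries lay at another gene. That region (73123466 to 73124102, 3.74- and 5.77-fold in the CTRL pair) was 9659 and 9731 bp outside Six4, with summits 27 bp before and 45 bp after the listed start of Mnat1, a subunit of the CDK-activating kinase. At the starts of Six4 itself only CTRL replicate 1 had a peak (73113202 to 73113502, 6.09-fold), and CTRL replicate 2 had one at 73111903 to 73112262 (6.02-fold) that did not overlap it. Six4 and Mnat1 overlap by their annotated spans, so summits there are inside or next to both. With summits inside the spans alone, Six4 had a peak in both CTRL libraries but no region shared by them.

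**Figure D4:**
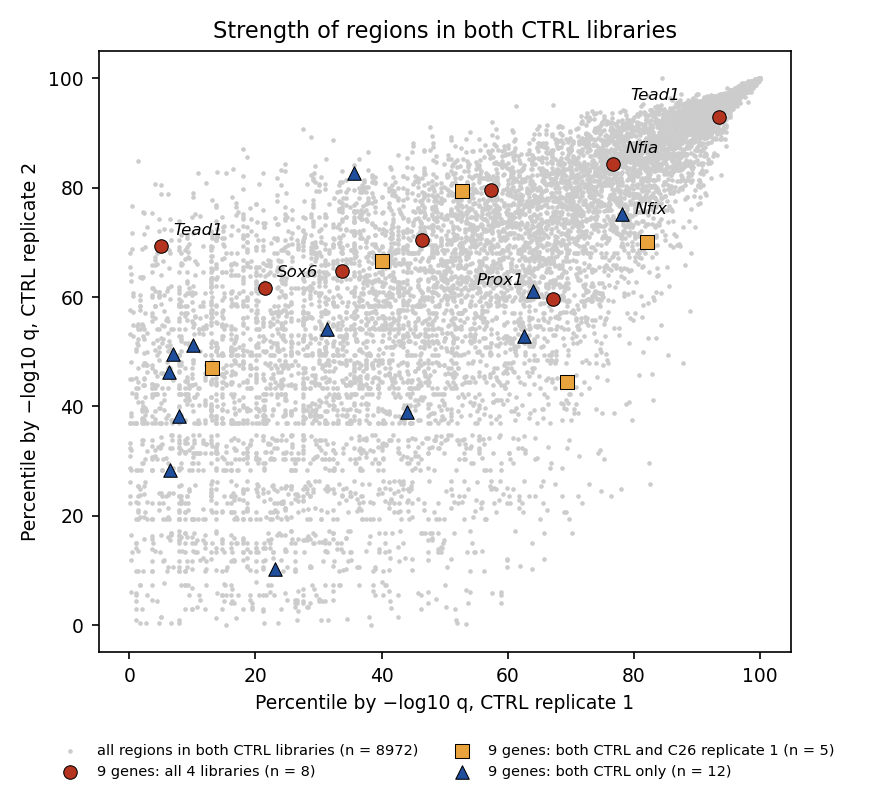
Percentile by −log10 q in CTRL replicate 1 (x axis) and CTRL replicate 2 (y axis) for regions with a peak in both. Grey points are all 8972 regions, and marked points are the 25 of the 9 genes, by their C26 peaks. The 12 without a C26 peak reach from low percentiles up to the Nfix region at 78.2 and 75.3.

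Strength in the CTRL lists separated the regions only in part. By the lower of the 2 CTRL percentiles, the 12 regions without a C26 peak had a median of 20.9 and ran from 6.29 to 75.3. The 8 regions in all 4 libraries had a median of 51.9 and ran from 5.05 to 92.9, so the groups overlapped. The same medians over all regions were 27.5 and 82.8. The CTRL replicates shared fewer peaks here than in the whole lists: 64.1% of CTRL replicate 1 peaks at the 9 genes lay in a region with a CTRL replicate 2 peak, against 84.0% of the whole list, and 44.6% against 60.3% in the other direction. In C26 the order was not the same both ways: 38.1% of replicate 1 peaks lay in a region with a replicate 2 peak, against 43.3% of the list, and 88.9% against 79.4% in the other direction, where the 9 genes had 9 peaks.

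The 10000 bp limit left out strong peaks. Just inside it, Nfix had a peak of 5.75-fold at 9871 bp in CTRL replicate 1, and Six4 had the pair at Mnat1. Just outside, at 11794 to 11848 bp from Nfic, each library had a peak, of 6.11-, 14.6-, 9.15- and 9.57-fold.

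Other genes of these pathways were read from 6 lists by the same rule. Of 10 relatives of SIX4, of EYA1 and of their corepressor DACH1, 4 had peaks in both CTRL lists and 1 in all 4. Eya3 had the strongest (10.8-fold in CTRL replicate 2, 59 bp from its end) and Six5 had 6.69-fold. Six5 was the gene in all 4 lists, but its C26 replicate 2 peak lay 9968 bp from its end, inside Dmpk. In the other libraries the strongest Six5 peak lay 372, 556 and 480 bp from an end. Of 9 relatives and cofactors of TEAD1, 4 had peaks in both CTRL lists and 3 in all 4. The coactivator gene Yap1 had a peak at its end in every library, at 9.55-, 14.6-, 8.18- and 6.11-fold in the 4 libraries. Tead3 (10.8-fold in CTRL replicate 2, inside the neighboring Rpl10a) and Tead4 (9.30-fold) came next.

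Of 15 other fiber-type regulators, 13 had peaks in both CTRL lists and 9 in all 4. The strongest by −log10 q were at Ppard, a lipid-sensing nuclear receptor (22.7-fold in CTRL replicate 2), Fnip1, a partner of AMPK (16.3-fold, 16 bp from Rapgef6), and Ppp3r1, the regulatory subunit of calcineurin (18.0-fold). Contractile genes split as follows. Both CTRL lists held 4 of 11 slow-fiber, 11 of 14 fast-fiber and 4 of 6 developmental genes, and all 4 lists held 2, 5 and 1. In the slow list the leading peaks, at Tnnt1 (16.0-fold in CTRL replicate 2) and Tnnc1 (18.0-fold), lay inside neighboring genes, Ppp1r12c and Nisch, and the third was at Tpm3 (14.2-fold). In the fast list the peaks at Myoz1 (21.5-fold) and Casq1 (19.3-fold) lay inside Usp54 and Pea15a, and Myl1 had 13.2-fold. In the developmental list, the peak of Chrng (15.3-fold) lay inside Eif4e2, and Myl4 (8.77-fold) and Actc1 (5.93-fold) followed. These counts stand beside 45.4% of all genes for both CTRL libraries and 20.8% for all 4.

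Nfic had the most peaks of the 9 genes, and the protein-coding genes with the closest peak counts over the 4 libraries included Sgms1, Usp2, Nfatc1 and Zbtb16. The Euclidean distances of their 4 counts from those of Nfic were 2 for Sgms1, 2.65 for Usp2 and 3.16 for both Nfatc1 and Zbtb16. Of these Usp2 was the one nearest to Nfic in length, at 28607 bp, with 6, 10, 4 and 3 peaks.

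As a check of the tissue label, 10 of 12 skeletal muscle marker genes were in both CTRL lists and 2 of 12 in both C26 lists, beside 45.4% and 21.1% of all genes. None of 5 endothelial, 5 fibroblast or 3 satellite cell markers were in both CTRL lists, but Pax7, the satellite cell factor, had a 41.4-fold peak in CTRL replicate 2, a 4.95-fold peak in C26 replicate 2 and none in the other 2 libraries. Of 5 leukocyte markers 1 was (Cd68, next to Eif4a1), and the adipocyte marker Plin1 was, with a peak inside Kif7. A peak is not a measure of expression, and the part of other cell types in the peaks was not tested.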

How the data were processed

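Phospho-CREB1 ChIP-seq was measured in 4 muscle libraries (2 CTRL, 2 C26) beside 4 input libraries. The genome build was mm10 (GRCm38), and MACS2 2.1.4, SAMtools 1.6, Picard, Bowtie2 2.3.5.1 and FastQC 0.11.2 are named, per the submitters' processing notes. Per the labels, each list was called against an input of its own group at q 0.05, and the labels do not say what a further filter in the list names did. The deposited lists give the fold enrichment over input, a ratio at the summit, and the −log10 p-value and −log10 q-value of each peak, all the authors' own values. They were used only within a list. Read depth is unknown.

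Printed starts are 1-based. Peaks were assigned to 9 genes by summit, and peaks of the 4 lists were merged at 1 bp of overlap (Python 3.11.15, pandas 2.3.3). Assignment and merging were tested on simulated data. Gene spans, listed starts and promoter sequences came from RefSeq tables of GRCm38.p6. The members and lists were chosen with earlier results of these data known, and the CCAAT and GC boxes were added after the data were seen. All 9 genes are named. Where a gene had over 6 regions, up to 6 shared by the CTRL libraries, by −log10 q in CTRL replicate 2, and every one in both C26 libraries were given and the rest mostly counted, and from each pathway list the 3 genes with the highest −log10 q in CTRL replicate 2. No test was run. Nearby genes share peaks under the 10000 bp rule. Some genes that the naming rule selects are not reported here.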

Additional observations from a re-analysis of the deposited data

How the results depend on the processing

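Of 68 values under alternative settings, 46 stayed within 1.5 times the reported count or stayed at a reported count of 0. The second kind covers C26-only regions, which left 0 only without C26 replicate 2, and the full element with 1 mismatch. Requiring −log10 q of at least 5 left 3 genes with a peak in both C26 libraries, 16 regions in both CTRL libraries, 3 in all 4, and 30.5 and 7.5 peaks per CTRL and C26 library. Lists trimmed to their 4051 strongest peaks left 4 genes in both CTRL and 3 in both C26 libraries, 3 regions in both CTRL libraries, 2 in all 4, 1 in CTRL only, and 6.5 and 7 peaks per CTRL and C26 library. A window of 50000 bp gave 13 regions in all 4 libraries and 23 peaks per C26 library. Leaving out 1 library in turn, regions in the remaining CTRL library numbered 39 to 56, CTRL-only regions 12 to 39 (39 without CTRL replicate 1, 24 without CTRL replicate 2), regions in all remaining libraries 8 to 13, C26-only regions 0 to 3 (3 without C26 replicate 2), and peaks in the remaining C26 library 9 to 21. The shorter element TGACG gave 1 promoter window in place of 0. The cause of these shifts was not tested, beyond the fewer peaks or libraries each setting holds. No paired analysis was possible because the results are counts of listed peaks, given as descriptions that come from no test. With unknown read depth, a missing peak is not an unbound site.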
